A study of Homo sapiens with 6 samples.

Results

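The serpins and a set of other protease inhibitors were examined in PANC-1 cells with and without a component of the DKK1 super-enhancer, DKK1-SE. The genes were taken by name from the deposited table: genes named SERPINA to SERPINI with a number, and A2M, A2ML1, SLPI, PI3, CST3, CST6, CSTA, CSTB, TFPI and TFPI2. Described here are 44 of 62703 listed genes, 34 serpins and 10 other inhibitors, and all 44 were placed on the hg38 build by their identifiers in GENCODE version 44. PANC-1 is an established human pancreatic cancer cell line. RNA-seq was performed on 3 biological replicates of wild-type cells (DKK1-SE+/+) and on 3 of cells in which both copies of e1, a component of DKK1-SE, had been deleted with CRISPR/Cas9 (DKK1-SE-/-). The edited cells had passed through puromycin selection and limiting dilution and are one clone, so the 3 replicates are samples of that clone and a trait of the clone cannot be told apart from an effect of the deletion. Values by sample are given below in the order of replicates 1, 2 and 3. The expected counts summed to 21822314, 16475810 and 18803154 for DKK1-SE+/+ samples, against 17359835, 20098086 and 17804764 for DKK1-SE-/- samples.

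Serpins are a family of structurally related proteins, most of which trap a serine protease by offering it a bait loop and then changing shape around it, so that inhibitor and enzyme are both spent. Some members, such as SERPINF1 and SERPINH1, keep the fold but inhibit no protease. Cystatins block cysteine proteases such as cathepsins, TFPI blocks the start of coagulation, and alpha-2-macroglobulin (A2M) cages proteases of every class. In pancreatic tumours these inhibitors and the plasminogen activators they face are studied for their part in matrix turnover and invasion.

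DKK1, the gene whose enhancer was deleted, separated the groups first. Its TPM (a level scaled for transcript length and library size) was 229, 246 and 199 for DKK1-SE+/+ cells, against 66.8, 79.8 and 82.7 for DKK1-SE-/- cells. All DKK1-SE-/- values lay below all DKK1-SE+/+ values, with a log2 fold change of -1.45 (SE 0.112, adjusted p = 6.16e-06, from edgeR, adjusted by Benjamini-Hochberg for all tested genes). The cells carried the transcripts of an epithelial cancer line with mesenchymal traits: the mean TPM of KRT8 was 957 ± 27.2 and 1559.7 ± 171, and that of VIM 4159 ± 390.5 and 2684 ± 143 (SD, n = 3) in DKK1-SE+/+ and DKK1-SE-/- cells. EPCAM was low, with a mean TPM of 4.17 and 2.58. Markers of hepatocytes, the main source of circulating serpins, were near 0, with ALB and TTR at 0 in all 6 libraries.

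Of the 44 genes, 13 had no read in any library, 15 had reads but too few to test, and 16 passed the filter on low counts. Those without a read were SERPINA4, SERPINA7, SERPINA9, SERPINA11, SERPINB3, SERPINB4, SERPINB10, SERPINB11, SERPINB12, SERPINB13, SERPINI2, A2ML1 and SLPI. A count of 0 still allows 3 counts, or 0.137 to 0.182 CPM in these libraries. Those with reads below the filter were SERPINA2, SERPINA5, SERPINA6, SERPINA10, SERPINA12, SERPINB5, SERPINB7, SERPINC1, SERPIND1, SERPINE3, SERPINF2, CST6, CSTA, PI3 and TFPI2, none with more than 11 counts in any library. Thus antithrombin (SERPINC1), heparin cofactor (SERPIND1) and antiplasmin (SERPINF2), plasma serpins made mainly by the liver, and the epithelial inhibitors SLPI, PI3, SERPINB3, SERPINB4 and SERPINB5 were at or near 0 in both groups.

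Among the 16 tested genes, 12 serpins and 4 other inhibitors, levels spanned from below 1 TPM to 333 TPM. The most abundant of these were the cystatins CSTB and CST3, followed by SERPINB6, SERPINH1 and TFPI. CST3 and SERPINB6 overlapped in DKK1-SE+/+ cells and stood apart in DKK1-SE-/- cells.

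**Figure D1:**
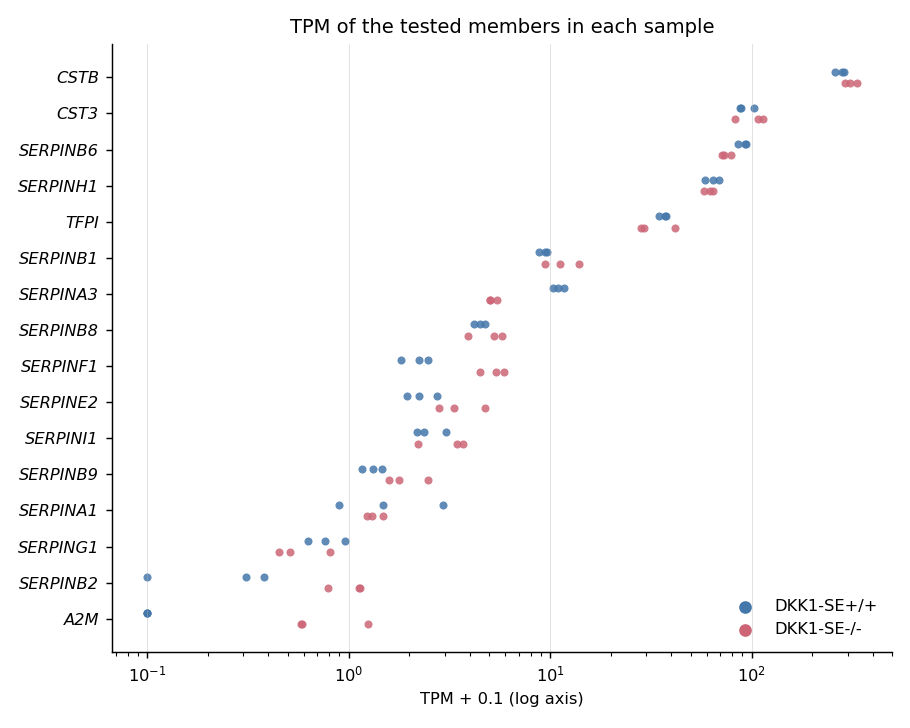
TPM plus 0.1 on a log axis for the 16 tested serpins and other inhibitors, ordered by mean TPM, with 1 point per sample (blue DKK1-SE+/+, red DKK1-SE-/-). CSTB lies at 258 to 333 TPM in every sample, while SERPINB2 and A2M lie at 0 to 0.28 TPM in DKK1-SE+/+ cells and at 0.48 to 1.15 TPM in DKK1-SE-/- cells.

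The quasi-likelihood F test of edgeR was run on the 15179 genes that passed the filter. Unless another fit is named, log2 fold changes are from this fit on counts with TMM scaling, so they differ from the ratio of mean TPM. At an adjusted p under 0.05, 8 of the 16 genes were higher in DKK1-SE-/- cells (19.8% of all tested genes were) and 1 was lower (19.5% of all tested genes were). Together these 9 are 56.25% of the tested inhibitors, where 39.3% of all tested genes passed the same limit. The balance of directions over all genes depends on the scaling: 3013 were higher and 2959 lower here, and 2497 and 3240 with library size alone. With limma on log2(TPM + 1), which also changes the test and the filter, 1251 were higher and 2288 lower. In that fit 3 of the inhibitors were higher and 1 lower. SERPINB2 and A2M passed the filter only through their DKK1-SE-/- libraries and had to differ, and without them 7 of 14 passed. By the limits of a DEG, an unadjusted p under 0.05 with a log2 change of 1.2 or more in either direction, A2M, SERPINB2 and SERPINF1 qualified, 3 genes, all higher (8.66% of tested genes were DEGs, 4.96% higher and 3.70% lower). Without SERPINB2 and A2M, 1 of 14 (7.14%) was a DEG. The shares over all tested genes still include genes that passed the filter through 1 group only. They are therefore no like measure for such reduced counts, here or below. With 1.2 read as a linear fold change, 9 of the 16 genes met the limits, as 7227 of all tested genes did. The median log2 fold change was 0.29 over the 16 genes, SERPINB2 and A2M included, and 0.030 over all tested genes. A2M is the highest of the 16 at its lower bound and at its fitted value, so that choice could not move the median. In bulk libraries, fewer cells with a transcript and less of it per cell cannot be told apart.

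**Figure D2:**
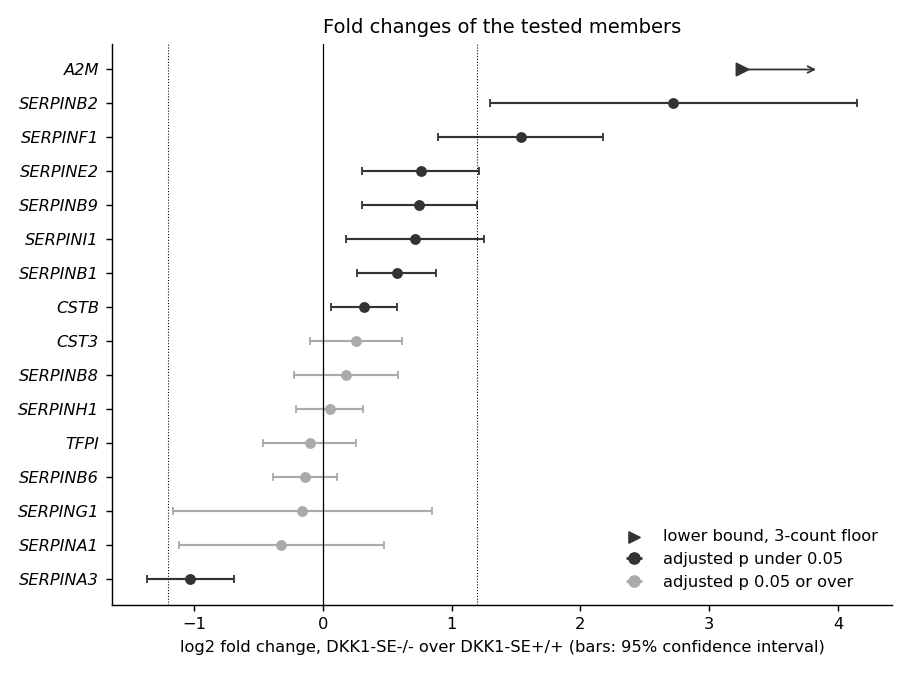
Log2 fold change of DKK1-SE-/- over DKK1-SE+/+ cells for the 16 tested genes (points, edgeR) with 95% confidence intervals (bars), and dotted lines at an absolute value of 1.2. Black points passed an adjusted p of 0.05, grey points did not, and the arrow marks the lower bound of A2M, 3.26. SERPINA3, at -1.03, is the only black point left of 0.

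Serpins that act on plasminogen activators include SERPINB2, SERPINE2, SERPINI1 and SERPINA5, the last with at most 2 counts in any library and below the filter. SERPINB2, plasminogen activator inhibitor type 2, is a serpin that is largely kept inside the cell and blocks PLAU. Its TPM was 0, 0.28 and 0.21 for DKK1-SE+/+ cells, against 0.69, 1.04 and 1.02 for DKK1-SE-/- cells. These levels rest on 0 to 5.9 counts in the DKK1-SE+/+ libraries and 16.6 to 30 in the DKK1-SE-/- libraries. Every DKK1-SE-/- sample lay above every DKK1-SE+/+ sample, with a log2 fold change of 2.72 (SE 0.648, 95% confidence interval 1.30 to 4.15, adjusted p = 0.00706, edgeR with Benjamini-Hochberg adjustment). It overlaps ENSG00000289724 on the same strand, with which expected counts could be shared. On the log2(TPM + 0.1) scale the adjusted p was 0.0537 (limma), the only one of the 16 alternatives above 0.05. Only the DKK1-SE-/- libraries brought SERPINB2 past the filter, so it had to differ, and these calls are no separate support. The log2 fold change was 2.03 without DKK1-SE+/+ replicate 1 and 3.35 without DKK1-SE+/+ replicate 2.

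Promoter sequences were looked up to show what stands before the start of the called genes. RefSeq entries on GRCh38.p14 were matched by symbol for 31 of the 44 genes and for 6 of the 9 called ones, with no entry for A2M, CSTB and SERPINF1. In the 250 bases before the start, both strands were searched for the letters of AP-1 sites (TGA then any base then TCA), of STAT sites (TTC then any 3 bases then GAA), of the TATA box (these being TATAAA) and of TCF sites (CTTTG then any base then T). These occur in 6.57, 6.57, 10.7 and 13.2% of 35116 promoters of the same length. Shown are SERPINB2, the DEG with an entry, and further on SERPINA3, which fell, and SERPINB9, a B-clade gene that rose. Capitals mark the matches, and each is read 5′ to 3′ on the strand of its gene. In SERPINB2 they are an AP-1 match beginning 102 bases before the start and a TATA box 30 bases before it, in a window of 37.2% GC that lies inside the longer gene span of GENCODE. A match describes letters only.

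SERPINB2, chr18:63887455-63887704, plus strand: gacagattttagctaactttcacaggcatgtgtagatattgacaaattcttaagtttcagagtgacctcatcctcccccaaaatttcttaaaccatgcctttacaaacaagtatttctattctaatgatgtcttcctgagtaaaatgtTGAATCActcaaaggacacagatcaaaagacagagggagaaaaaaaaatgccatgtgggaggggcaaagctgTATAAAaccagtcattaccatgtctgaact

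SERPINE2, protease nexin 1, is a secreted serpin that binds thrombin, plasminogen activators and trypsin at the cell surface. Its TPM was 1.86, 2.66 and 2.13 for DKK1-SE+/+ cells, against 2.72, 3.22 and 4.67 for DKK1-SE-/- cells. The groups came close without overlapping, and DKK1-SE-/- replicate 3 was the highest. The log2 fold change was 0.76 (SE 0.205, adjusted p = 0.0134, edgeR with Benjamini-Hochberg adjustment). This call was lost without DKK1-SE+/+ replicate 1 (adjusted p = 0.0633, edgeR) and without DKK1-SE-/- replicate 2 (0.0514, edgeR), and with limma on TPM, the range over the 16 alternatives being 0.00109 to 0.289.

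SERPINI1, neuroserpin, inhibits PLAT in the nervous system and was present at a mean TPM of 2.43 ± 0.457 and 3.02 ± 0.802 (SD, n = 3). Its TPM overlapped between the groups, the log2 fold change was 0.71 (SE 0.244, adjusted p = 0.0377, edgeR), and the call was lost under 12 of 16 alternatives.

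**Figure D3:**
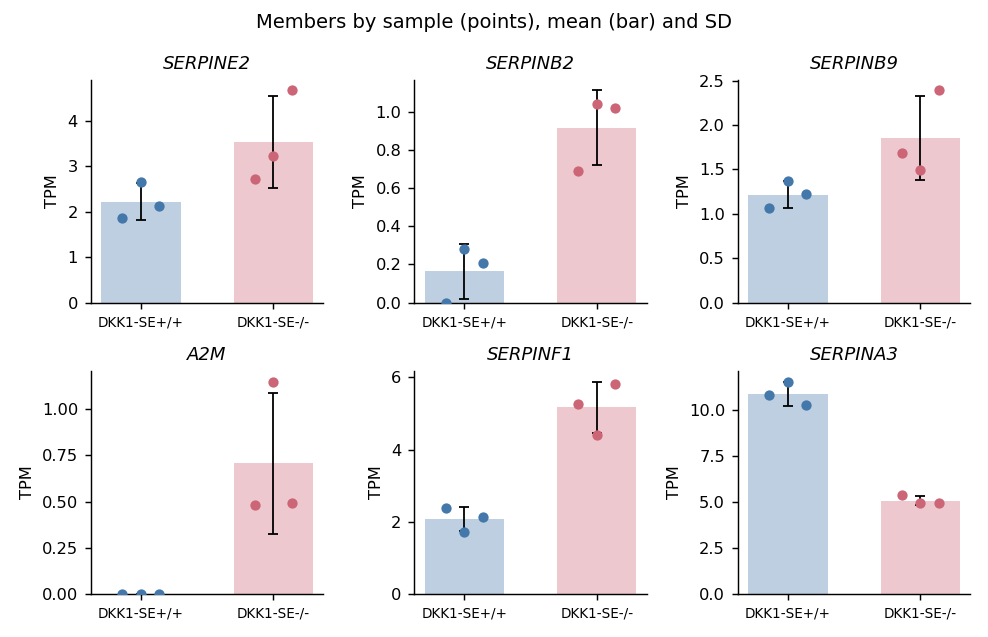
TPM of SERPINE2, SERPINB2, SERPINB9, A2M, SERPINF1 and SERPINA3 in each sample (points), with the mean (bar, from 0) and SD (line, n = 3) of each group and a scale for each gene. SERPINA3 is about 11 TPM in DKK1-SE+/+ cells and about 5 in DKK1-SE-/- cells, the others are higher in DKK1-SE-/- cells, and A2M is at 0 in all DKK1-SE+/+ samples.

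A2M, the broad-range protease trap, had 0 counts in every DKK1-SE+/+ library and 25, 25 and 30 counts in the DKK1-SE-/- libraries, that is a TPM of 0 in the former and 0.48, 1.15 and 0.49 in the latter. The TPM of DKK1-SE-/- replicate 2 was more than double that of replicate 1 at the same count. Against a floor of 3 counts per library, A2M was at least 9.56-fold higher in DKK1-SE-/- cells, a bound that was not itself tested. For the counts as observed, edgeR returned an adjusted p of 0.000140 (Benjamini-Hochberg), and the highest value among the 16 alternatives was 0.0448 (limma). A2M had to differ, however, since only the DKK1-SE-/- libraries brought it past the filter. On the opposite strand it overlaps A2M-AS1. Even so, its level stayed low beside that of CSTB.

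SERPINF1, pigment epithelium-derived factor, is a secreted serpin without inhibitory activity, known for blocking the growth of blood vessels. Its TPM was 2.38, 1.72 and 2.13 for DKK1-SE+/+ cells, against 5.27, 4.41 and 5.83 for DKK1-SE-/- cells. The lowest DKK1-SE-/- sample was well above the highest DKK1-SE+/+ sample. These levels rest on 13 to 27 counts in the DKK1-SE+/+ libraries and 54 to 61 in the DKK1-SE-/- libraries. The log2 fold change was 1.54 (SE 0.292, 95% confidence interval 0.89 to 2.18, adjusted p = 0.00205, edgeR with Benjamini-Hochberg adjustment), and the gene passed under all 16 alternatives, with log2 fold changes of 1.00 to 1.69. SERPINF2, which lies beside it on chromosome 17 and inhibits plasmin, stayed at 0 to 6 counts per library.

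SERPINA3, alpha-1-antichymotrypsin, is an acute-phase serpin that inhibits chymotrypsin-like proteases such as cathepsin G, and it was the gene that fell. Its TPM was 10.8, 11.6 and 10.3 for DKK1-SE+/+ cells, against 5.38, 4.92 and 4.94 for DKK1-SE-/- cells. The samples were tight within each group and far apart between them. It fell by 1.03 on the log2 scale (SE 0.153, adjusted p = 0.000481, edgeR with Benjamini-Hochberg adjustment), a fitted fold of 0.490, which is short of the DEG limit on the log2 scale. The call held under all 16 alternatives, and with the GC-content offset the log2 fold change was -1.22 (edgeR), past the DEG limit. SERPINA3 overlaps the readthrough gene ENSG00000273259 on the same strand. The part of its promoter clear of annotated exons, 156 bases, has a match to the TCF letters on the opposite strand, 223 bases before the start (capitals).

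SERPINA3, chr14:94612141-94612296, plus strand: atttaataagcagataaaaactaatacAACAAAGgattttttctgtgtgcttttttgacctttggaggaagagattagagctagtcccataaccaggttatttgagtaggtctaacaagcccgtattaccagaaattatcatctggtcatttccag

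SERPINA3 belongs to the SERPINA cluster on chromosome 14, in which 10 serpin genes lie within 344 kb. Of these, only SERPINA3 and SERPINA1 were tested, 5 had reads below the filter and 3 had no reads. SERPINA1, alpha-1-antitrypsin, the main plasma inhibitor of neutrophil elastase, had a TPM of 2.83, 0.80 and 1.38 for DKK1-SE+/+ cells, against 1.38, 1.2 and 1.13 for DKK1-SE-/- cells. Replicate 1 of DKK1-SE+/+ stood above the rest, the groups overlapped, and the log2 fold change was -0.32 (SE 0.362, adjusted p = 0.509, edgeR). SERPING1, the inhibitor of complement C1 on chromosome 11, was likewise low and not called, with a mean TPM of 0.683 ± 0.166 and 0.490 ± 0.193 (SD, n = 3) and a 95% confidence interval of the log2 fold change from -1.17 to 0.85.

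The B clade holds serpins that mostly work inside the cell, and its genes sit in clusters on chromosomes 6 and 18. On chromosome 6, SERPINB1, SERPINB6 and SERPINB9 lie within 139.8 kb, and all 3 were tested. SERPINB1, which protects cells from neutrophil proteases, had a TPM of 9.59, 8.66 and 9.33 for DKK1-SE+/+ cells, against 9.30, 11.2 and 13.9 for DKK1-SE-/- cells. TPM overlapped through DKK1-SE-/- replicate 1, and the log2 fold change from counts was 0.57 (SE 0.139, adjusted p = 0.00781, edgeR with Benjamini-Hochberg adjustment). With limma on TPM it was 0.27 to 0.30 and not called (adjusted p = 0.253 to 0.379).

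SERPINB9, the inhibitor of granzyme B that shields cells from cytotoxic lymphocytes, had a TPM of 1.06, 1.37 and 1.22 for DKK1-SE+/+ cells, against 1.68, 1.49 and 2.39 for DKK1-SE-/- cells. No sample of one group reached the other, and the log2 fold change was 0.75 (SE 0.203, adjusted p = 0.0138, edgeR with Benjamini-Hochberg adjustment). Its call was lost with limma on TPM (adjusted p = 0.216 to 0.417) and without DKK1-SE+/+ replicate 1 (0.0702, edgeR). Its promoter has a TATA box 30 bases before the start (capitals), the same distance as in SERPINB2, in a window of 74.4% GC. SERPINB1 has a match to the STAT letters 208 bases before its start, and SERPINE2 (both of its entries) and SERPINI1 have none of the 4.

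SERPINB9, chr6:2903310-2903559, minus strand: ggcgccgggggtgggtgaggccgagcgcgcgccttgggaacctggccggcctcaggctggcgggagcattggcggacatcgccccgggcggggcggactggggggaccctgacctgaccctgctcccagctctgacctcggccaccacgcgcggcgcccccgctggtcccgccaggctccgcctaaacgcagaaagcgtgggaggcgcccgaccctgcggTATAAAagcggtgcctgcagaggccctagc

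Beside them, SERPINB6, an inhibitor of cathepsin G and other serine proteases, was the most abundant of the cluster. Its TPM was 92.3, 93.9 and 85.9 for DKK1-SE+/+ cells, against 71.4, 78.9 and 72.7 for DKK1-SE-/- cells. TPM did not overlap, yet after TMM normalization the log2 fold change was -0.14 (SE 0.112, adjusted p = 0.357, edgeR). On the TPM scale the median log2 difference of all genes was itself shifted, by -0.11, and with the GC-content offset the sign of SERPINB6 turned (0.0092, edgeR). Genes of one cluster thus gave 2 calls upward and 1 gene not called.

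On chromosome 18, 10 B-clade serpins lie within 543 kb, and 6 of them had no reads, among them SERPINB3 and SERPINB4, the squamous cell carcinoma antigens. SERPINB5 and SERPINB7 had up to 3 and 5 counts. The tested genes were SERPINB2, described above, and SERPINB8, an inhibitor of furin-like and other proteases. SERPINB8 had a TPM of 4.65, 4.39 and 4.10 for DKK1-SE+/+ cells, against 3.80, 5.69 and 5.14 for DKK1-SE-/- cells. Groups overlapped, with a log2 fold change of 0.18 (SE 0.184, adjusted p = 0.471, edgeR). SERPINB2 and SERPINB8 are 66.1 kb apart, and SERPINB2 alone was called.

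Among cystatins, CSTB (stefin B), an inhibitor of cathepsins in the cytosol and nucleus, had a TPM of 289, 258 and 282 for DKK1-SE+/+ cells, against 307, 333 and 292 for DKK1-SE-/- cells. All DKK1-SE-/- samples were higher, by little, at a log2 fold change of 0.32 (SE 0.116, adjusted p = 0.0493, edgeR with Benjamini-Hochberg adjustment). This call at the edge of the limit was lost under 14 of 16 alternatives. CST3 (cystatin C), the secreted inhibitor of cathepsins, had a TPM of 87.1, 88.0 and 103 for DKK1-SE+/+ cells, against 108, 114 and 82.4 for DKK1-SE-/- cells. DKK1-SE-/- replicate 3 was the lowest of all samples, and the log2 fold change was 0.26 (SE 0.162, adjusted p = 0.234, edgeR), which became 0.41 without that replicate (adjusted p = 0.00814, edgeR, the lowest over the alternatives, which reached 0.657).

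TFPI, the inhibitor of the tissue factor pathway, also turned on 1 sample. Its TPM was 37.2, 37.3 and 34.6 for DKK1-SE+/+ cells, against 29.1, 28.1 and 41.8 for DKK1-SE-/- cells. Replicates 1 and 2 of DKK1-SE-/- were below and replicate 3 was above every DKK1-SE+/+ sample. The log2 fold change was -0.10 (SE 0.164, adjusted p = 0.650, edgeR), -0.33 without DKK1-SE-/- replicate 3 (adjusted p = 0.0349, edgeR) and 0.045 without DKK1-SE-/- replicate 1 (0.825, edgeR), with adjusted p of 0.0349 to 0.848 over the alternatives. More generally, DKK1-SE-/- libraries differed among themselves more than DKK1-SE+/+ libraries did: the mean chi-square per gene between replicate pairs was 28.0 to 39.2 in the former and 4.58 to 14.4 in the latter, where sampling noise alone gives about 1.

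SERPINH1 (HSP47), the collagen chaperone of the endoplasmic reticulum, had a TPM of 64.4, 58.9 and 68.5 for DKK1-SE+/+ cells, against 64.2, 62.2 and 58.1 for DKK1-SE-/- cells. These groups overlapped almost fully, with a log2 fold change of 0.054 (SE 0.117, adjusted p = 0.747, edgeR) and a 95% confidence interval from -0.20 to 0.31. With the GC-content offset it was -0.19 (adjusted p = 0.0405, edgeR, the lowest over the alternatives, which reached 0.999).

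The proteases that these inhibitors face were taken as lists of genes by class. Over 74 protease and cofactor genes, 28 were tested, and 9 were higher and 7 lower in DKK1-SE-/- cells at an adjusted p under 0.05 (edgeR), 57.1% beside 39.3% of all tested genes, with a median log2 fold change of -0.060. All 11 proteases of immune granules, among them AZU1 and PRTN3 at no more than 0.99 and 0.55 TPM, were below the filter.

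In the plasminogen activation list all 3 tested genes were called higher (39.3% of all tested genes were called, 19.8% higher), and the zymogen PLG was below the filter. PLAU, urokinase, an activator that SERPINB2 and SERPINE2 inhibit, had a TPM of 444, 430.0 and 434 for DKK1-SE+/+ cells, against 863.8, 797 and 841 for DKK1-SE-/- cells. Every DKK1-SE-/- sample lay far above every DKK1-SE+/+ sample, with a log2 fold change of 1.10 (SE 0.0993, adjusted p = 1.83e-05, edgeR with Benjamini-Hochberg adjustment). PLAUR, its receptor, had a mean TPM of 17.0 ± 1.60 and 23.0 ± 4.47 (SD, n = 3) and a log2 fold change of 0.61 (SE 0.175, adjusted p = 0.0175, edgeR), a call lost under 7 of 16 alternatives. Without DKK1-SE-/- replicate 1 its log2 fold change was 0.39, and with the GC-content offset 0.34 (edgeR). PLAT, tissue plasminogen activator, was a DEG with a mean TPM of 0.673 ± 0.180 and 1.46 ± 0.372 (SD, n = 3) and a log2 fold change of 1.55, called in every alternative but the 3 with limma.

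**Figure D4:**
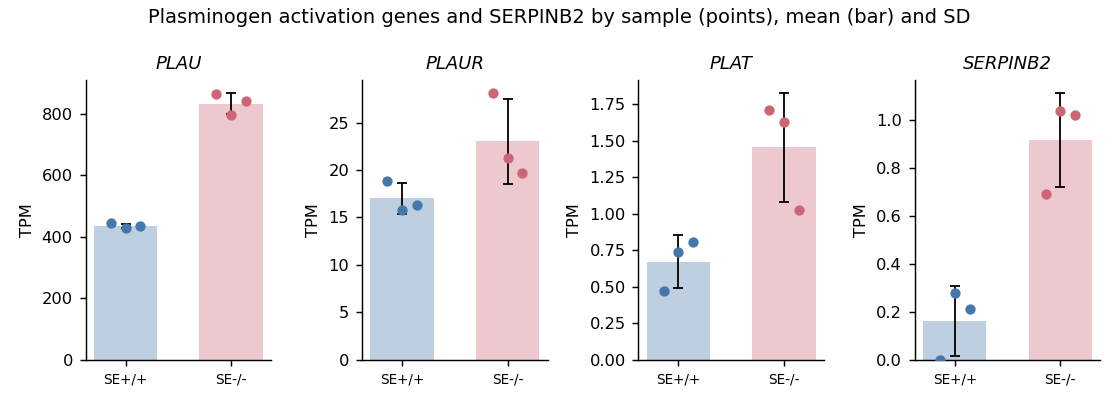
TPM of PLAU, PLAUR, PLAT and SERPINB2 in each sample (points), with group mean (bar, from 0) and SD (line, n = 3) and a scale for each gene. PLAU lies at 430.0 to 444 TPM in DKK1-SE+/+ samples and at 797 to 863.8 TPM in DKK1-SE-/- samples.

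The coagulation list held 5 called genes among 7 tested, 2 higher and 3 lower (71.4% called, beside 39.3% of all tested genes). F3, tissue factor, the target of TFPI, was a DEG with a TPM of 0.76, 0.23 and 0.27 for DKK1-SE+/+ cells, against 1.98, 1.73 and 3.40 for DKK1-SE-/- cells, a log2 fold change of 2.62. The abundant members of the list went the other way: F2RL1, a receptor cleaved by trypsin-like proteases, had a mean TPM of 288 and 197.6 and a log2 fold change of -0.39, and PROCR, the protein C receptor, had 60.2 and 32.7 TPM and a log2 fold change of -0.68. F2RL2, a thrombin receptor, was a DEG with a log2 fold change of 1.34 at a mean TPM of 0.727 and 1.71. F2R, another thrombin receptor, fell, with a mean TPM of 58.7 and 30.9. Its log2 fold change was -0.79 (SE 0.102, adjusted p = 0.00019, edgeR). The call of F2RL1 was lost with the replicate block and GC-content offset together (adjusted p = 0.0617, edgeR), and that of F2RL2 with limma on log2(TPM + 1) without a filter (0.112, limma).

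Of 6 tested kallikreins and trypsin-like proteases, 1 was higher and 2 were lower (50% called, beside 39.3% of all tested genes). PRSS12, neurotrypsin, was a DEG with a mean TPM of 0.253 ± 0.150 and 1.55 ± 0.299 (SD, n = 3) and a log2 fold change of 3.18. On log2(TPM + 1) with limma it was 1.03, short of the DEG limit. PRSS23, an abundant secreted protease, fell, with 252 ± 11.1 and 153 ± 3.72 TPM (SD, n = 3) and a log2 fold change of -0.62, while PRSS3, mesotrypsin, had a log2 fold change of 0.27 and was not called. F3, PRSS12 and the inhibitor TIMP3 reached the count limit of the filter in 1 DKK1-SE+/+ library and in all 3 DKK1-SE-/- libraries, so their tests rest on the higher group.

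Of 12 tested cathepsins and related enzymes, among them targets of cystatins, 3 were higher, 2 lower and 7 not called (41.7% called, beside 39.3% of all tested genes). CTSD, an aspartic protease of lysosomes, had a TPM of 386, 437 and 458 for DKK1-SE+/+ cells, against 799, 709.7 and 618 for DKK1-SE-/- cells, with a log2 fold change of 0.90 (SE 0.134, adjusted p = 0.000485, edgeR). With the GC-content offset the log2 fold change of CTSD was 0.54, and the gene was called (adjusted p = 0.00014, edgeR). CTSB, a cysteine protease that CSTB and CST3 inhibit, had 237, 254 and 260.1 TPM for DKK1-SE+/+ cells, against 127, 118 and 119 for DKK1-SE-/- cells. It fell by 0.89 on the log2 scale (SE 0.102, adjusted p = 9.20e-05, edgeR), and the groups were far apart in both genes.

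Other inhibitors and the receptors that clear inhibitor complexes made up 42 genes, of which 20 were tested, 6 were higher and 8 lower (70.0% beside 39.3% of all tested genes, or 12 of 18 without CST1 and LRP2, which had to differ), with a median log2 fold change of -0.12. The number of calls, 14, was 9 with the replicate block, 6 with limma without a filter, and 7 to 14 with 1 sample left out, fewest without DKK1-SE+/+ replicate 2. Some of these fits also called genes that were not among the 14. CST1 (cystatin SN), a secreted cystatin encoded 109 kb from CST3 on chromosome 20, had a TPM of 0.57, 0.78 and 0.33 for DKK1-SE+/+ cells, against 22.8, 19.4 and 22.9 for DKK1-SE-/- cells. The log2 fold change was 5.47 (SE 0.295, adjusted p = 4.69e-07, edgeR with Benjamini-Hochberg adjustment), beside 0.26 for CST3. CST1 passed the filter only through its DKK1-SE-/- libraries.

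TIMP1 and TIMP3 block matrix metalloproteinases. TIMP1 had a mean TPM of 216 ± 11.2 and 294 ± 18.2 (SD, n = 3) and rose, with a log2 fold change of 0.65, which was 0.44 with limma on log2(TPM + 1) and 0.39 at the lowest over the alternatives. TIMP3 was a DEG, with 0.217 ± 0.142 and 0.910 ± 0.105 TPM (SD, n = 3) and a log2 fold change of 2.26. With limma on log2(TPM + 1) that value was 0.66, short of the DEG limit. SPINT2, an inhibitor of the membrane serine proteases, was more abundant than CSTB, with 599 ± 40.3 and 539 ± 94.2 TPM (SD, n = 3), and was not called (log2 fold change 0.096, and negative on the TPM scale and with the GC-content offset). Its relative SPINT1 was a DEG in the opposite direction to the others, with a log2 fold change of -1.25, although its TPM overlapped between the groups and the call at an adjusted p under 0.05 was lost under 8 of 16 alternatives. It reached the count limit of the filter in all 3 DKK1-SE+/+ libraries and in 1 DKK1-SE-/- library.

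Of the 6 tested receptors and partners, 3 were higher and 3 lower (39.3% of all tested genes were called), but only LRP2 was called without DKK1-SE+/+ replicate 2, and LRP1, LRP8 and SORL1 were lost with the replicate block. LRP2 (megalin), an uptake receptor for serpin and protease complexes, had a TPM of 0.01, 0 and 0 for DKK1-SE+/+ cells, against 0.12, 0.38 and 0.35 for DKK1-SE-/- cells. Its counts were 3, 0 and 0 in the DKK1-SE+/+ samples, so it passed the filter only through the other group and had to differ. With each of these libraries set to 3 counts, the value seen in replicate 1, the fold was 8.31, which was not itself tested. The fit on the observed counts gave an adjusted p of 0.000598 (edgeR). Over the 14 alternatives that held LRP2 it was at most 0.0720 (limma). LRPAP1, the chaperone of this receptor family, had a log2 fold change of 0.44, lost as a call under 8 of 16 alternatives. LRP8, a receptor of the same family, had 28.4 ± 0.916 and 21.3 ± 1.91 TPM (SD, n = 3) and a log2 fold change of -0.37, a call lost under 5 of 16 alternatives.

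**Figure D5:**
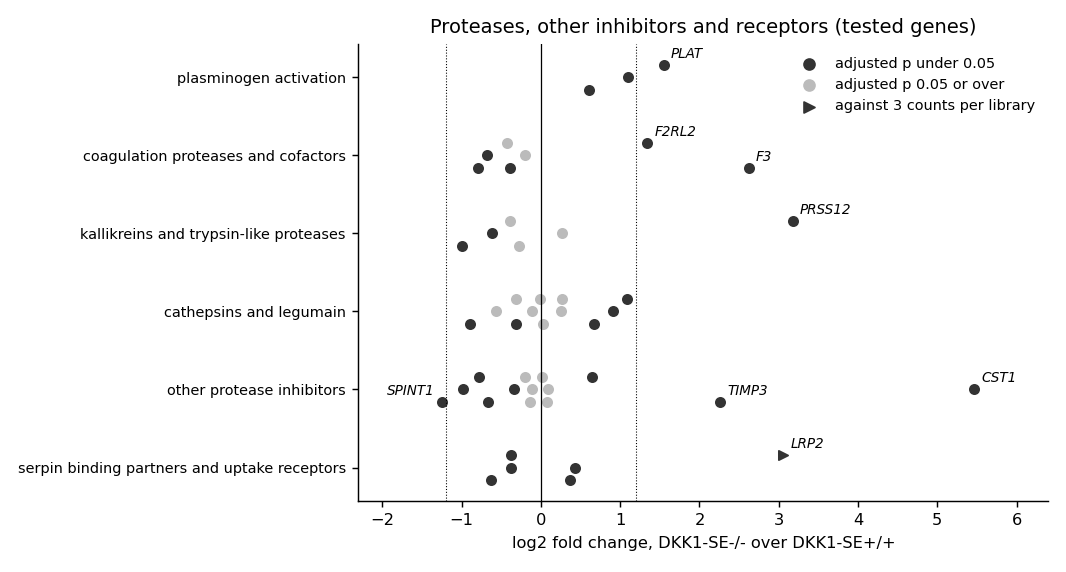
Log2 fold change of DKK1-SE-/- over DKK1-SE+/+ cells for the tested genes of each list (1 point per gene, black past an adjusted p of 0.05, grey not), with names on the DEGs, dotted lines at an absolute value of 1.2 and an arrowhead for LRP2, drawn at its value against 3 counts per library. DEGs lie to the right in each list that has one, except SPINT1 at -1.25.

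Position was compared within 500 kb of each gene. Around SERPINF1, 20 genes were tested, 8 were higher and 1 was lower, beside 39.3% called of all tested genes. This count of 9 was 6 with the replicate block, 3 without DKK1-SE+/+ replicate 1 or 2, 3, 3 and 1 in the limma fits, and 13 without DKK1-SE-/- replicate 3. Their median log2 fold change was 0.28, below the 1.54 of SERPINF1, and 0.18 with the GC-content offset. Across all tested genes, those of higher GC content had higher log2 fold changes (Spearman's rho = 0.404, and -0.017 with the offset, over genes that are no independent replicates of each other).

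Of the 5 tested neighbours of SERPINE2, MRPL44, WDFY1, AP1S3 and CUL3 fell, SCG2 rose, and the median was -0.53 against 0.76 for SERPINE2. The number of calls, 5 (39.3% of all tested genes were called), was 4 with the GC-content offset and 3 or 4 in the limma fits. Near SERPINA3, 4 genes were tested and 2 fell, PPP4R4 (-1.10) and DICER1 (-0.69), and the median was -0.51 against -1.03 for SERPINA3. Around SERPINA1, a window that includes SERPINA3, 7 genes were tested, 4 were lower and 0 higher. The median there was -1.03, and the cause was not tested. Around A2M, 8 genes were tested, 1 was called, and the median was -0.13. SERPINB2 and SERPINB8 had 2 and 1 tested neighbours in this window.

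Markers of other cell types were checked as whole lists, beside 39.3% called of all tested genes. For leukocytes, the summed TPM of PTPRC, CD68, CD3E and LYZ was 43.3, 40.9 and 46.5 for DKK1-SE+/+ cells, against 68.0, 64.9 and 67.2 for DKK1-SE-/- cells. That sum was almost all CD68, a lysosomal protein and the 1 called gene of 4, while PTPRC and CD3E had at most 1 count in any library. For fibroblasts, the summed TPM of PDGFRB, DCN, LUM and COL3A1 was 2.91, 2.14 and 2.32 for DKK1-SE+/+ cells, against 4.19, 3.94 and 4.10 for DKK1-SE-/- cells, COL3A1 being the most abundant and the 1 called gene of 4, with DCN at 0 in every sample but DKK1-SE+/+ replicate 3. The acinar, islet, endothelial and hepatocyte lists summed to at most 0.37, 0.33, 0.22 and 0.09 TPM in any sample, and no gene of them was tested. Of the line's own markers, 5 of 6 were called, 3 higher (KRT8, KRT18, KRT19) and 2 lower (VIM, EPCAM), and their part in the values of the inhibitors was not tested.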

How the data were processed

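RNA-seq of 3 DKK1-SE+/+ and 3 DKK1-SE-/- PANC-1 samples was used, with groups from the sample labels. The authors had stranded mRNA libraries sequenced and analysed at Majorbio, with hg38 in the submitters' processing notes, and the aligner and annotation are not stated. The deposited table holds expected counts per gene and sample, not normalized, of which 32.3% of the nonzero ones are not whole, and TPM, which the authors normalized within each sample. Its columns of group means, fold changes, log2 fold changes, p-values, adjusted p-values, significance and direction of the authors' own comparison were not used.

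Rounded counts went into edgeR 4.0.16 (R 4.3.3): filterByExpr (minimum count 10), TMM (factors 0.939 to 1.04) and the quasi-likelihood F test without covariates, with Benjamini-Hochberg adjustment over 15179 genes. The SE is the absolute log2 fold change divided by the square root of F, and the fits were tested on simulated data. Folds against a group at 0 were computed against 3 counts per library. The 95% confidence intervals rest on this SE, which includes the spread between replicates. The floor of 3 counts covers counting error only. Summaries were made with pandas 2.3.3 in Python 3.11.15. Alternatives were DESeq2 1.42.0, RLE factors, library size alone, no filter beyond a total count of 1, a block for the replicate number, a GC-content offset in 40 bins with and without the block, limma-trend (limma 3.58.1) on log2(TPM + 1) (mean TPM of at least 0.5 in a group, or no filter) or log2(TPM + 0.1), leaving out each sample, and reading the DEG limit of 1.2 as a linear fold.

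Of the genes chosen, 1 inhibitor and 1 receptor are not reported here. Every other serpin and inhibitor could be named, with values by sample for the DEGs, for the 6 of highest mean TPM and for tested genes of the clusters on chromosomes 6, 14 and 18. From each list the DEGs and the 2 genes of highest mean TPM were named, and DKK1. F2R was added after values were seen. Values by sample for SERPINE2, the neighbouring genes and the promoters shown were chosen after values were seen. The genes and lists were chosen with earlier results of these data known.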

Additional observations from a re-analysis of the deposited data

How the results depend on the processing

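For the 16 tested inhibitors, 256 log2 fold changes were recomputed under 16 alternatives: 201 kept their direction and their side of an adjusted p of 0.05, 39 lost the call, 2 gained one in the same direction and 14 changed sign, 1 of them (SERPINH1 with the GC-content offset) to a call. SERPINF1 and SERPINA3 were called under all 16, as was A2M, which had to differ. The number of called inhibitors, 9, was 7 to 9 with DESeq2 and the other edgeR fits on all samples, 4 with limma on log2(TPM + 1), 3 on log2(TPM + 0.1), 4 on log2(TPM + 1) without a filter, and 5 to 10 with 1 sample left out. Among the fits with 1 sample left out, it was lowest without DKK1-SE+/+ replicate 1 (5), and it was 6 without DKK1-SE-/- replicate 2. The number of DEGs, 3, was 0 with limma on log2(TPM + 1), with and without a filter (6 and 8 of the inhibitors had an unadjusted p under 0.05 there), 4 on log2(TPM + 0.1), and 9 with 1.2 read as a linear fold. A pseudocount of 1 shrinks genes at about 1 TPM, which includes A2M and SERPINB2. Among DEGs of the other lists, limma on log2(TPM + 1) gave log2 fold changes of 0.55 for PLAT, 0.65 for F2RL2 and 1.03 for PRSS12. The same fit gave 0.66 for TIMP3, 1.23 for F3, 3.87 for CST1 and -0.56 for SPINT1. In the limma fits the median of all genes moved by -0.11, -0.14 and, without a filter, -0.034.

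Over all genes, 5972 were called, and 3539, 3612 and 2320 in the same limma fits, with more genes lower than higher in each of these (2288 and 1251 in the first). DEGs numbered 1314, and 2490 without a filter, 561 (205 higher, 356 lower) and 550 with limma on log2(TPM + 1) with and without a filter, and 7227 with the linear limit. For the proteases the count of 16 was 12 to 20. Of the other inhibitors and receptors, 14 were called, 9 with the replicate block, 6 with limma without a filter and 7 to 14 with 1 sample left out. Correlations between same-numbered samples, after subtracting each group mean, were -0.123, -0.074 and -0.109, so the numbers gave no sign of pairing. The cause was not tested for any of these differences beyond the number of genes or samples.

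For the genes that changed sign, with the GC-content offset alone and with the block, the log2 fold change was 0.0092 and 0.00046 for SERPINB6, -0.19 (called) and -0.19 for SERPINH1, 0.13 and 0.12 for TFPI, -0.0041 and -0.0059 for PRSS3, and -0.16 and -0.17 for SPINT2. With limma on log2(TPM + 1), with or without a filter, and on log2(TPM + 0.1) it was -0.054 and -0.054 for SERPINH1, -0.040 and -0.042 for PRSS3, and -0.16 and -0.16 for SPINT2. With library size alone SERPINH1 was at -0.022. With 1 sample left out, the values were -0.039 (without DKK1-SE-/- replicate 1) to 0.13 for SERPINH1, -0.33 to 0.045 (without DKK1-SE-/- replicate 1) for TFPI, -0.68 to 0.051 (without DKK1-SE+/+ replicate 3) for SERPING1, and -0.068 (without DKK1-SE-/- replicate 2) to 0.24 for SPINT2. The cause of these was not tested.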

Other observations

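A pair of inhibitors below the filter of the edgeR comparison had more reads in DKK1-SE-/- cells (counts in the order of replicates 1, 2 and 3). CSTA (stefin A), a cystatin of epithelia, had 2, 0 and 0 counts for DKK1-SE+/+ cells, against 5, 10 and 2 for DKK1-SE-/- cells, and met the DEG limits without a filter and with limma on log2(TPM + 0.1). TFPI2, a Kunitz inhibitor of plasmin and trypsin, had 0, 1 and 1 counts for DKK1-SE+/+ cells, against 3, 4 and 4 for DKK1-SE-/- cells. In the other direction, SERPINB7 had 5, 2 and 2 counts for DKK1-SE+/+ cells, against 0, 1 and 2 for DKK1-SE-/- cells, and SERPINA6 had 7, 3 and 3 against 2, 3 and 1. These counts are near the floor of 3 and were named after they were seen.

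With 3 replicates per group, one edited clone, and levels of transcripts rather than of secreted or active protein, the values describe these cells only. For A2M and SERPINB2, counts of 30 or fewer per library limit the precision, as do 13 to 27 counts of SERPINF1 in DKK1-SE+/+ libraries.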
